A study of Homo sapiens with 12 samples.

Results

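The 9 genes described here belong to the MHC class I antigen presentation pathway: HLA-B, HLA-C and HLA-E, B2M, TAP1, TAP2, TAPBP, NLRC5 and ERAP1. They were found by gene symbol among the 64252 gene IDs of the count table, and each symbol matched 1 ID. Of the 9, 5 had enough counts to be tested (HLA-B, HLA-C, B2M, NLRC5 and ERAP1), TAPBP had 3 to 10 counts per library, and HLA-E, TAP1 and TAP2 were listed at 0 in all 12 libraries. The tested 5 passed the minimum count in every library, the lowest being 28 counts for HLA-C.

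Poly(A) RNA was sequenced from MDA-MB-231, an established human triple-negative breast cancer cell line, after lipofection of a plasmid encoding Dicer. Dicer, the product of DICER1, is the ribonuclease that cuts microRNA precursors. The groups were Dicer Mutation 1, Mutation 2, Mutation 3 and wild-type Dicer, with 3 libraries each. In the genotype labels the wild-type libraries are numbered, and they are called replicates 1, 2 and 3 here. Whether that numbering marks replicates or different wild-type conditions is not in the labels. Libraries of each mutation share 1 label and were numbered here in sample order. The labels number the mutations without naming them, all groups received a Dicer plasmid on top of the line's own DICER1, and untransfected or empty-vector cells were not analysed here. Whether the 3 libraries of a group are separate cultures is not in the labels, so the tests reflect a spread that could be technical.

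A class I molecule is a heavy chain (HLA-B, HLA-C or HLA-E among these genes) held together with the light chain B2M and a short peptide cut from the cell's own proteins. TAP1 and TAP2 form the pump that brings peptides into the endoplasmic reticulum, TAPBP (tapasin) bridges the pump to empty heavy chains, and ERAP1 trims peptides to fit. CD8 T cells read the loaded molecules on the cell surface, and natural killer cells sense their loss. Transcription of the heavy chain genes and B2M is driven by NLRC5, a transactivator that acts on a shared promoter module (the SXY module) and is itself induced by interferon gamma. Tumours often show low class I levels, which helps them to escape T cells.

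The promoters of the HLA-B, HLA-C and B2M genes are shown because each of these heavy chains pairs with B2M and the transcripts were compared across the same libraries. Each sequence is the 250 bases before the RefSeq transcription start on GRCh38.p14, written 5′ to 3′ on the gene's strand, at chr6:31357180-31357429 (minus strand) for HLA-B, chr6:31272093-31272342 (minus strand) for HLA-C and chr15:44711267-44711516 (plus strand) for B2M. Capitals mark matches on either strand to the searched motifs, which were AANNGAAA (the core bound by interferon regulatory factors), the Y box CCAAT and TGACGC (the core of site alpha in class I promoters, a CREB and ATF element), and overlapping matches run together.
HLA-B: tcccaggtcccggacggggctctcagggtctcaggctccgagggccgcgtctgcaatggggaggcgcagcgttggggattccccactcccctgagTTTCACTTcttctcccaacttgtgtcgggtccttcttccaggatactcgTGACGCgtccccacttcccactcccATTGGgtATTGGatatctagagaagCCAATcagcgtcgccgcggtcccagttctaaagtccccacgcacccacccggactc
HLA-C: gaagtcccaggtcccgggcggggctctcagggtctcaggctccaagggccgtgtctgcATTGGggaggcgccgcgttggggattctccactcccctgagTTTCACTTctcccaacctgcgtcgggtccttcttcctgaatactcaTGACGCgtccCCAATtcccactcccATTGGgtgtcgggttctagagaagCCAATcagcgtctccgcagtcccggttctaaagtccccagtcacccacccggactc
B2M: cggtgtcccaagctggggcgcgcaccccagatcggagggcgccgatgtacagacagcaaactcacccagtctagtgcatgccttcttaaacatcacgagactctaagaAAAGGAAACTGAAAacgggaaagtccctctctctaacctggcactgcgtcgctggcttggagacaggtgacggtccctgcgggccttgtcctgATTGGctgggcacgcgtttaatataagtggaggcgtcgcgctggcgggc

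The HLA-B and HLA-C promoters were identical at 226 of 254 aligned columns (88.98%), against 49.48% for HLA-B with B2M. All 3 held AANNGAAA, on the minus strand of the gene in the heavy chains and as an overlapping pair on the plus strand in B2M, and so did 20.307% of the 35116 promoters of this length. Both heavy chain promoters held TGACGC, present in 7.669% of promoters, and the B2M window did not. The Y box CCAAT matched 3 times in HLA-B, 4 times in HLA-C and 1 time in B2M, and 32.008% of promoters held it. Promoters were in the table for 7 of the 9 genes. These are reference sequences and not the alleles of MDA-MB-231, and a match is a string of letters, not a bound site.

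Library totals ran from 13507341 to 17078273 counts. Markers of the line (VIM, CD44, EGFR and AXL) summed to 3214 to 5269 CPM in the 12 libraries, while the hormone receptor genes ESR1 and PGR stayed at or below 0.653 and 0.074 CPM. ERBB2, the third receptor gene by which breast cancers are classed, was not near 0, at 68.3 to 111.3 CPM. CPM are counts scaled to library size after adjustment by the trimmed mean of M-values (TMM). DICER1 averaged 43.6 ± 1.51 CPM with Mutation 1, 45.2 ± 0.730 with Mutation 2 and 39.4 ± 0.637 with Mutation 3, against 39.9 ± 11.0 with wild type (SD, n = 3 each), and no mutation passed the test against wild type (edgeR adjusted p = 0.493, 0.406 and 0.916 in that order). Without wild-type replicate 1, where DICER1 was at 27.3 CPM against 45.1 and 47.4 in the other wild-type libraries, Mutation 3 passed as lower (-0.23 in log2 units, adjusted p = 0.000372) and Mutations 1 and 2 did not. Wild-type replicate 1 stood apart from its own group: counts differed from those of wild-type replicates 2 and 3 with chi-square values of 148.2 and 141.4 per degree of freedom, while the other replicate pairs gave 1.26 to 3.51. Results of the 9 genes that turn on this library are given with and without it.

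The counts of HLA-region genes have a limit that touches 6 of the 9 genes, since HLA-B, HLA-C, HLA-E, TAP1, TAP2 and TAPBP lie within it on chromosome 6. Between GABBR1 and KIFC1, 118 of 155 protein-coding genes (76.129%) were at 0 in all 12 libraries, against 126 of 878 (14.351%) on the rest of chromosome 6 and 2884 of 19657 (14.672%) on all chromosomes. Of 12 genes of this stretch that most cells use, 8 were at 0 in all libraries and 11 had at most 100 counts over the 12 libraries. RPS18, a ribosomal protein gene, had 1 count in all, while BRD2, a chromatin reader gene, had 1364. The table also holds 3628 gene IDs of GENCODE v29 that lie outside the primary assembly, of which 444 had counts and none had a symbol in the tables used. Per the file headers, reads under a mapping quality of 10 were left out of the counts. The part of these features in the zeros was not tested, so a listed 0 in this region is not a measurement of an absent transcript, and the HLA-B and HLA-C counts may hold only some of their reads.

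**Figure D1:**
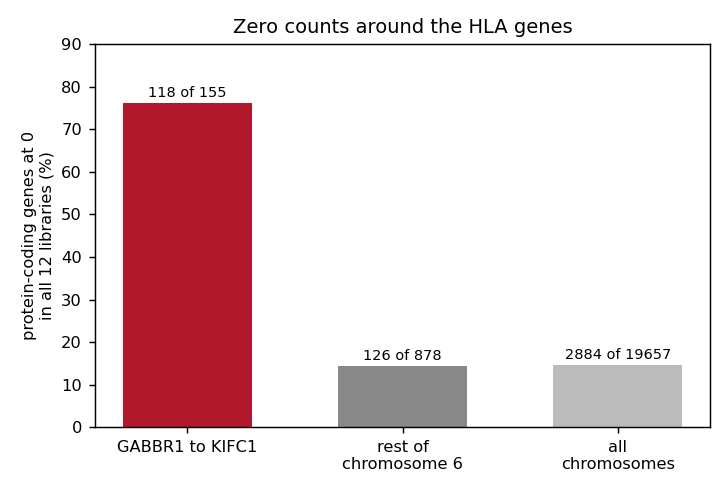
Share of protein-coding genes at 0 counts in all 12 libraries, in percent (vertical axis from 0), for the stretch from GABBR1 to KIFC1, the rest of chromosome 6 and all chromosomes, with gene counts above the bars. The bar of the HLA stretch stands at 76.129%, against 14.351% and 14.672%.

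Among the heavy chains, HLA-B (ENSG00000234745, chr6:31269491-31357188 on hg38) was higher in cells with each Dicer mutation than in cells with wild-type Dicer. HLA-B presents peptides to CD8 T cells and some of its allotypes engage natural killer cell receptors. It measured 358.8, 334.7 and 364.2 CPM with Mutation 1, 158.6, 168.8 and 170.6 with Mutation 2, and 217.1, 219.8 and 221.5 with Mutation 3, against 117.8, 29.5 and 29.8 with wild type. Every mutation library was above every wild-type library, and wild-type replicate 1 was 3.98 times the mean of the other wild-type libraries. In log2 units the difference from wild type was 2.58 (SE 0.45, edgeR adjusted p = 0.000392) for Mutation 1, 1.49 (SE 0.43, adjusted p = 0.0199) for Mutation 2 and 1.90 (SE 0.44, adjusted p = 0.00331) for Mutation 3. Without wild-type replicate 1 the same differences were 3.58, 2.49 and 2.89. The call for Mutation 2 was lost on leaving out wild-type replicate 2 or 3 or Mutation 2 replicate 2 or 3 (adjusted p 0.0516 to 0.0584). That call was also lost in a fit of only the 2 groups compared (edgeR adjusted p = 0.131) and without the filter on low counts (adjusted p = 0.0964). In these bulk libraries fewer cells of a type and less RNA per cell cannot be told apart.

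For HLA-B, the order of the means was Mutation 1, Mutation 3, Mutation 2 and wild type. Mutation 1 exceeded Mutation 2 by 1.09 in log2 units (edgeR adjusted p = 0.0418), and this call was lost whenever any 1 mutation library was left out (adjusted p 0.0637 to 0.105). It was also lost without TMM scaling (adjusted p = 0.0943) and without the filter on low counts (adjusted p = 0.154). The neighbours in that order did not pass the test among the mutations, with 0.68 for Mutation 1 over Mutation 3 (adjusted p = 0.217) and 0.40 for Mutation 3 over Mutation 2 (adjusted p = 0.445), although in both pairs the libraries did not overlap. The spread estimate of these tests is shared by all 12 libraries and takes in wild-type replicate 1. Without that library both differences kept their size, at 0.68 and 0.40, with adjusted p = 1.465e-45 and 4.306e-23. In the same fit Mutation 1 exceeded Mutation 2 by 1.08 (adjusted p = 6.353e-68).

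CD14, a monocyte surface gene that other cells can also express, was the only tested gene of 6 immune cell markers. It measured 27.0, 22.2 and 25.8 CPM with Mutation 1, 5.98, 9.39 and 7.21 with Mutation 2, and 7.13, 6.40 and 5.99 with Mutation 3, against 20.5, 3.63 and 3.42 with wild type. Like HLA-B, CD14 was high in wild-type replicate 1, and the summed level of the 6 markers ran from 22.3 to 27.0 CPM with Mutation 1, 6.26 to 9.85 with Mutation 2 and 6.07 to 7.56 with Mutation 3, against at most 20.6 with wild type. The defining leukocyte marker PTPRC stayed at or below 0.167 CPM, and the T cell gene CD3E was at 0 in all libraries. The 3 endothelial markers summed to at most 1.13 CPM in mutation libraries and to 3.08 to 18.5 CPM in wild-type libraries, where PECAM1 averaged 11.7 CPM. PECAM1 was at 2.75 CPM in wild-type replicate 1, against 17.1 and 15.3 CPM in wild-type replicates 2 and 3.

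HLA-C (ENSG00000204525, chr6:31268749-31272130 on hg38), a ligand of killer-cell receptors on natural killer cells as well as a peptide presenter, was read from few counts, 28 to 160 per library. It measured 11.2, 9.05 and 11.5 CPM with Mutation 1, 2.53, 2.98 and 2.87 with Mutation 2, and 5.38, 4.37 and 5.11 with Mutation 3, against 2.56, 2.51 and 1.81 with wild type. Mutation 1 libraries were the highest, Mutation 3 libraries lay between, and Mutation 2 overlapped wild type. HLA-C rose by 2.20 in log2 units with Mutation 1 (SE 0.17, edgeR adjusted p = 9.73e-07) and by 1.11 with Mutation 3 (SE 0.17, adjusted p = 0.000285) relative to wild type. With Mutation 2 the difference was 0.28 and did not pass the test (adjusted p = 0.237). Mutation 1 exceeded Mutation 3 by 1.09 (adjusted p = 0.000332), and Mutation 3 exceeded Mutation 2 by 0.82 (adjusted p = 0.0021).

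For HLA-C, wild-type replicate 1 was 1.18 times the mean of the other wild-type libraries, unlike for HLA-B. The ratio of HLA-B to HLA-C counts was 31.7 to 37.0 with Mutation 1, 56.6 to 62.7 with Mutation 2 and 40.4 to 50.3 with Mutation 3, against 46.1, 11.7 and 16.5 in wild-type replicates 1, 2 and 3. By counts, the 2 heavy chain genes therefore did not differ by equal factors between the mutation groups, while the wild-type ratios alone ran from 11.7 to 46.1. Their annotated exons share 35 bases, 1.147% of HLA-B and 1.396% of HLA-C, and 542 exon bases of HLA-B (17.765%) overlap the pseudogene AL671883.2 on the other strand. Counting was without strand, so reads from overlapping exons cannot be told apart, and the heavy chain genes resemble each other along much of their length.

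HLA-E (ENSG00000204592, chr6:30489467-30494205 on hg38), which presents leader peptides of other class I chains to natural killer cells, was listed at 0 in all 12 libraries. A count of 3 in 1 library would have been 0.167 to 0.239 CPM, a limit that covers counting error only. HLA-E lies within the stretch of zeros described above.

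The light chain B2M (ENSG00000166710, chr15:44711487-44718877 on hg38) lies on chromosome 15, outside that stretch, and had at least 207.1 CPM in every library. It measured 442.8, 496.0 and 436.6 CPM with Mutation 1, 208.1, 220.8 and 207.1 with Mutation 2, and 289.3, 308.3 and 325.7 with Mutation 3, against 221.3, 240.9 and 236.2 with wild type. Mutation 1 libraries were all above Mutation 3 libraries, which were all above wild type, and Mutation 2 libraries were all just below wild type. B2M rose by 0.98 in log2 units with Mutation 1 (SE 0.07, edgeR adjusted p = 4.67e-07) and by 0.40 with Mutation 3 (SE 0.07, adjusted p = 0.000504). With Mutation 2 the difference was -0.13 and did not pass the test (adjusted p = 0.15), while without wild-type replicate 1 it was -0.16 and passed (adjusted p = 0.0331).

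B2M thus had the order Mutation 1, Mutation 3, wild type and Mutation 2, with only the last neighbours indistinct in the fit of 12 libraries. Mutation 1 exceeded Mutation 3 by 0.57 (edgeR adjusted p = 8.01e-05), and Mutation 3 exceeded Mutation 2 by 0.54 (adjusted p = 7.57e-05). Wild-type replicate 1 was 0.928 times the mean of the other wild-type libraries for B2M. The ratio of HLA-B to B2M counts ran from 0.675 to 0.834 with Mutation 1, 0.762 to 0.824 with Mutation 2 and 0.680 to 0.751 with Mutation 3, against 0.532, 0.122 and 0.126 in wild-type replicates 1, 2 and 3. Every mutation library was above every wild-type library, and the Mutation 2 libraries were all above the Mutation 3 libraries.

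**Figure D2:**
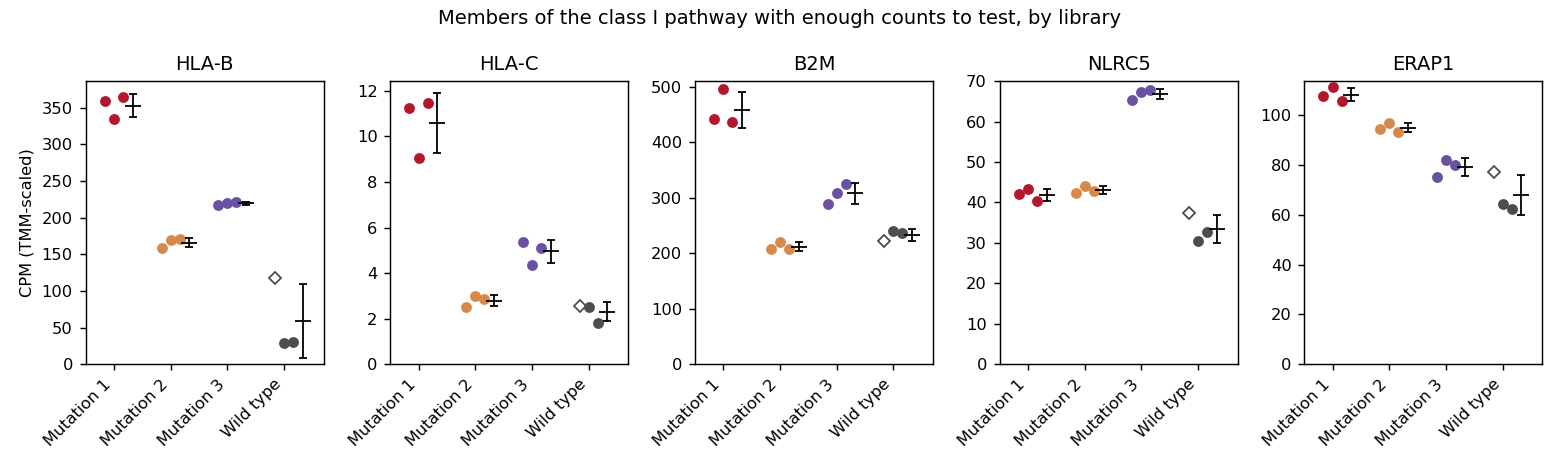
TMM-scaled CPM (vertical axes from 0, 1 panel per gene) of HLA-B, HLA-C, B2M, NLRC5 and ERAP1 in each library, by group, with the mean and SD of 3 libraries beside the points and wild-type replicate 1 as an open diamond. HLA-B, HLA-C and B2M were highest with Mutation 1 and NLRC5 with Mutation 3, and the diamond of HLA-B stands at 117.8 CPM, above the other wild-type points at 29.5 and 29.8.

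The peptide pump and its bridge could not be compared. TAP1 (ENSG00000168394, chr6:32845209-32853978 on hg38) and TAP2 (ENSG00000204267, chr6:32821833-32838780 on hg38) were listed at 0 in every library, as were PSMB8 and PSMB9, the immunoproteasome subunit genes that lie beside them. TAPBP (ENSG00000231925, chr6:33299694-33314387 on hg38) had 0.188 to 0.563 CPM over the 12 libraries and averaged 0.341, 0.480 and 0.245 CPM with Mutations 1, 2 and 3, against 0.332 CPM with wild type, too few counts to be tested. All 4 genes at 0 lie in the stretch where most genes have no counts. TAPBPL, a tapasin relative on another chromosome that edits peptides without the pump, was counted in all libraries and was lower than wild type by 0.93 in log2 units with Mutation 2 (edgeR adjusted p = 0.00779) and by 0.95 with Mutation 3 (adjusted p = 0.00371). With Mutation 1 the TAPBPL difference was -0.32 (adjusted p = 0.208), and it passed at -0.52 when wild-type replicate 1 was left out.

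The peptide trimmer ERAP1 (ENSG00000164307, chr5:96760810-96808100 on hg38) was higher with each mutation. It measured 107.8, 111.1 and 105.8 CPM with Mutation 1, 94.5, 97.0 and 93.4 with Mutation 2, and 75.2, 82.2 and 79.8 with Mutation 3, against 77.0, 64.4 and 62.2 with wild type. Libraries with Mutations 1 and 2 were all above wild type, and those with Mutation 3 overlapped wild-type replicate 1. ERAP1 rose by 0.67 in log2 units with Mutation 1 (SE 0.08, edgeR adjusted p = 1.91e-05), by 0.48 with Mutation 2 (adjusted p = 0.000815) and by 0.22 with Mutation 3 (adjusted p = 0.0298). The call for Mutation 3 was lost on leaving out wild-type replicate 2 or 3 or any 1 library of Mutation 1 or Mutation 3 (adjusted p 0.0753 to 0.18) and without TMM scaling (adjusted p = 0.34). ERAP1 was the gene among the tested 5 with the order Mutation 1, Mutation 2, Mutation 3 and wild type, and Mutation 3 was 0.26 lower than Mutation 2 (adjusted p = 0.0143), a call lost without Mutation 2 replicate 2 or Mutation 3 replicate 1 or 3 (adjusted p 0.0538 to 0.0928). Mutation 1 exceeded Mutation 2 by 0.19 (adjusted p = 0.0498), a call lost on leaving out wild-type replicate 2 or any 1 mutation library (adjusted p 0.0523 to 0.164). Without wild-type replicate 1 these ERAP1 calls held. Mutation 3 was then 0.32 above wild type (adjusted p = 1.57e-09) and at -0.26 against Mutation 2 (adjusted p = 6.17e-09). Mutation 1 was 0.19 above Mutation 2 (adjusted p = 9.06e-06). The neighbours CAST and AC008906.1 on the other strand overlap 3.763% and 3.172% of its exon bases.

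Its partner ERAP2, which also trims peptides in the same compartment and is not one of the 9 genes, was higher by 0.57 with Mutation 1, 0.49 with Mutation 2 and 0.89 with Mutation 3 in log2 units (edgeR adjusted p = 0.000187, 0.00178 and 1.04e-05 in that order). ERAP2 averaged 13.6, 12.9 and 17.1 CPM with Mutations 1, 2 and 3, against 9.18 CPM with wild type.

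The transactivator NLRC5 (ENSG00000140853, chr16:56989485-57083531 on hg38) was highest with Mutation 3. HLA-C and B2M, which NLRC5 is known to activate, were highest with Mutation 1. Only RNA was measured, and whether NLRC5 had a part in those levels was not tested. NLRC5 measured 42.2, 43.3 and 40.3 CPM with Mutation 1, 42.4, 44.1 and 42.7 with Mutation 2, and 65.4, 67.3 and 67.8 with Mutation 3, against 37.4, 30.5 and 32.6 with wild type. The Mutation 3 libraries stood clear of all others, those of Mutations 1 and 2 overlapped, and wild type lay lowest. NLRC5 rose by 1.00 in log2 units with Mutation 3 (SE 0.07, edgeR adjusted p = 1.26e-06), by 0.36 with Mutation 2 (adjusted p = 0.00321) and by 0.32 with Mutation 1 (adjusted p = 0.0025). It was 0.67 lower with Mutation 1 than with Mutation 3 (adjusted p = 4.13e-05) and 0.63 higher with Mutation 3 than with Mutation 2 (adjusted p = 3.56e-05). Between Mutations 1 and 2 the difference was -0.04 (adjusted p = 0.651), while HLA-C was 1.92 and B2M 1.11 higher with Mutation 1 than with Mutation 2 (adjusted p = 2.43e-06 and 1.75e-07). Without TMM scaling, the NLRC5 call for Mutation 1 against wild type was lost (0.11, adjusted p = 0.249) and Mutation 1 was called lower than Mutation 2 (-0.25, adjusted p = 0.018). In fits of only the 2 groups compared, the calls against wild type were lost for Mutation 1 (adjusted p = 0.0543) and Mutation 2 (adjusted p = 0.0591).

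Read together, all 5 tested genes were higher with Mutation 1 than with wild type, beside 69% of all 15094 genes tested that were called, 32.5% higher and 36.5% lower. With Mutation 2, 3 of 5 were higher (HLA-B, NLRC5 and ERAP1), beside 37% called, 16.9% higher and 20.1% lower. With Mutation 3 all 5 were higher, beside 59.3% called, 28.1% higher and 31.2% lower. Libraries did not overlap between the groups for 68%, 42.6% and 61% of all genes in the comparisons of Mutations 1, 2 and 3 with wild type. The median log2 difference of the 5 was 0.98, 0.36 and 1.00 for Mutations 1, 2 and 3, where that of all genes tested was -0.04, -0.01 and -0.01. These comparisons share the same wild-type libraries. Without wild-type replicate 1, the counts were 5, 4 and 5, with B2M the added gene, lower with Mutation 2, and 82.7%, 67.9% and 77.1% of all genes were called.

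**Figure D3:**
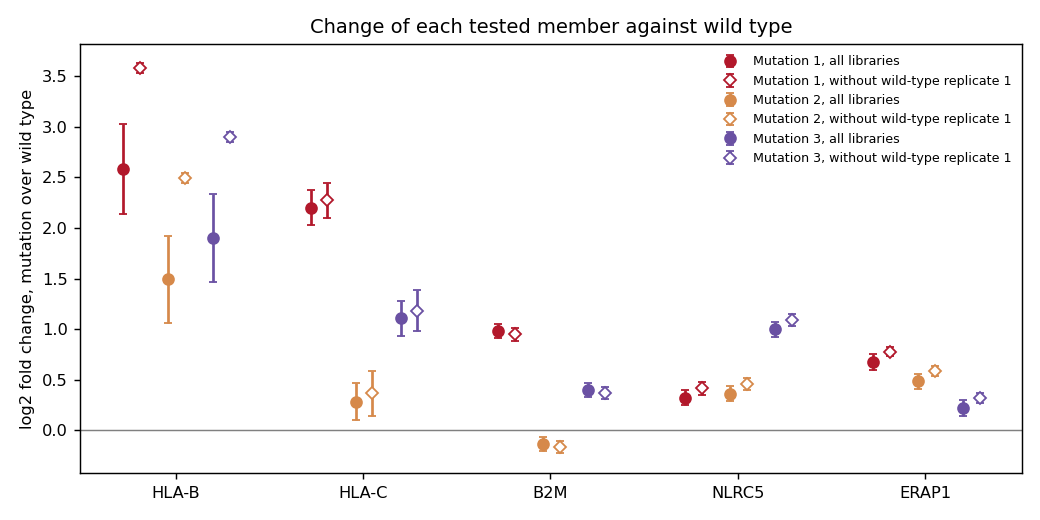
Log2 fold change of HLA-B, HLA-C, B2M, NLRC5 and ERAP1 in each mutation group over wild type, with approximate SE bars from the edgeR fit, using all libraries (filled circles) or leaving out wild-type replicate 1 (open diamonds). HLA-B moved most on leaving that library out, to 3.58, 2.49 and 2.89 for Mutations 1, 2 and 3.

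Between mutations, 4 of the 5 tested genes passed the test in each pair. Mutation 1 was higher than Mutation 2 in HLA-B, HLA-C, B2M and ERAP1, beside 65.4% of all genes called, 31.8% higher and 33.6% lower. Mutation 1 was higher than Mutation 3 in HLA-C, B2M and ERAP1 (0.45 in log2 units, edgeR adjusted p = 0.00082) and lower in NLRC5, beside 42.8% called, 20.2% higher and 22.5% lower. Mutation 3 was higher than Mutation 2 in HLA-C, B2M and NLRC5 and lower in ERAP1, beside 52.9% called, 25.7% higher and 27.2% lower. Libraries did not overlap for 81.6%, 69.8% and 75.9% of all genes in these pairs, in the same order. The pair of Mutations 1 and 2 depended on the libraries included, with 2 to 4 genes called on leaving out each library in turn and fewer than 4 whenever a mutation library was left out. HLA-C, B2M and ERAP1 were called in every pair of mutations in the fit of 12 libraries. Among the mutations, HLA-C and B2M each had Mutation 1 highest and Mutation 2 lowest. ERAP1 had Mutation 1 highest and Mutation 3 lowest.

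The other pathway genes described next come from lists of textbook genes. Of 14 further genes that make, load or fold class I complexes, 12 were tested. Of these, 6 rose and 3 fell with Mutation 1, 2 rose and 4 fell with Mutation 2, and 4 rose and 5 fell with Mutation 3, relative to wild type. Their median log2 differences were 0.06, -0.12 and -0.02. Without wild-type replicate 1, 6 rose with each mutation and 4, 5 and 5 fell. Beside these counts, 69%, 37% and 59.3% of all genes tested were called with Mutations 1, 2 and 3. Without that library the shares of all genes were 82.7%, 67.9% and 77.1%. CALR (calreticulin), a chaperone of newly made heavy chains, averaged 3279, 1476 and 1865 CPM with Mutations 1, 2 and 3, against 1380 CPM with wild type, and was called with Mutation 1 (1.25 in log2 units, edgeR adjusted p = 2.6e-05) and Mutation 3 (0.43, adjusted p = 0.0257). Leaving out wild-type replicate 1, CALR was called with all 3 mutations, at 1.51, 0.36 and 0.70.

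CANX (calnexin), which holds heavy chains before B2M joins, measured 1704, 1722 and 1689 CPM with Mutation 1, 1280, 1284 and 1295 with Mutation 2, and 1301, 1328 and 1335 with Mutation 3, against 1198, 574 and 582 with wild type. It was higher by 1.12, 0.71 and 0.75 in log2 units (edgeR adjusted p = 0.00123, 0.0305 and 0.0148 in that order), and as with HLA-B its wild-type replicate 1 lay nearest the mutation libraries. Without that library the CANX differences were 1.57, 1.16 and 1.20. PDIA3, the oxidoreductase of the loading complex, rose with Mutation 1 (0.87, adjusted p = 0.000249), as did HSPA5, the general chaperone of the endoplasmic reticulum (1.87, adjusted p = 8.59e-08). Without wild-type replicate 1 both also passed with Mutation 2 (0.23 and 0.10) and Mutation 3 (0.45 and 0.22).

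On the proteasome side of the pathway, PSMB10 and PSME2 fell with every mutation. PSMB10, an immunoproteasome subunit gene outside chromosome 6, averaged 5.66, 10.4 and 9.43 CPM with Mutations 1, 2 and 3, against 14.5 CPM with wild type, and was lower by 1.35, 0.48 and 0.62 in log2 units (edgeR adjusted p = 4.11e-05, 0.0415 and 0.00803). PSME2, a subunit of the proteasome activator PA28, averaged 46.3, 73.6 and 49.9 CPM, against 104.2 CPM with wild type, and fell in all 3 comparisons (adjusted p = 2.42e-08, 8.56e-05 and 1.13e-07). PSME1, its partner subunit, averaged 212.6, 138.1 and 174.9 CPM, against 185.0 CPM with wild type, and rose with Mutation 1 (0.20, adjusted p = 0.0118) but fell with Mutation 2 (-0.42, adjusted p = 0.000402). PSME3, a nuclear proteasome activator gene, averaged 61.1, 180.2 and 61.0 CPM, against 203.0 CPM with wild type, and fell with Mutations 1 and 3 by 1.73 each. Its difference with Mutation 2 was -0.17 (adjusted p = 0.0512), or -0.22 and called when wild-type replicate 1 was left out.

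Of 15 regulators of class I transcription, all tested, 3 rose and 7 fell with Mutation 1, 5 rose and 3 fell with Mutation 2, and 3 rose and 8 fell with Mutation 3, with medians of -0.22, 0.10 and -0.35 in log2 units. With wild-type replicate 1 left out, 5, 9 and 4 rose and 9, 6 and 9 fell. Of all genes tested, 69%, 37% and 59.3% were called with Mutations 1, 2 and 3, and 82.7%, 67.9% and 77.1% without that library. IRF1, an interferon-induced activator, averaged 70.1, 63.4 and 38.7 CPM with Mutations 1, 2 and 3, against 49.5 CPM with wild type, and was higher with Mutations 1 and 2 and lower with Mutation 3 (0.50, 0.36 and -0.35, edgeR adjusted p = 0.00268, 0.0328 and 0.0224). With wild-type replicate 1 left out, these IRF1 differences were 0.69, 0.55 and -0.16, all called. RFX5, a subunit of the factor that carries NLRC5 to the promoter module, averaged 43.4, 91.1 and 43.5 CPM, against 67.7 CPM with wild type. It fell with Mutations 1 and 3 (-0.64 each, adjusted p = 8.82e-05 and 0.000133) and rose with Mutation 2 (0.43, adjusted p = 0.00378).

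Other proteins that bind the same module did not move as 1 group. RFXAP fell by 1.77 and 1.14, NFYC, a subunit of the CCAAT-binding factor NF-Y, by 1.00 and 0.47, and ATF1, a member of the CREB family, by 0.91 and 0.80 in log2 units, with Mutations 1 and 3, all at adjusted p under the threshold. With Mutation 2 ATF1 fell too (-0.56, edgeR adjusted p = 0.012), and RFXAP and NFYC were at -0.37 and 0.10 (adjusted p = 0.276 and 0.442). Without wild-type replicate 1, RFXAP passed as lower (-0.47) and NFYC as higher (0.23) with Mutation 2. RFXANK fell with Mutations 2 and 3 (-0.49 and -0.47) and was at -0.10 with Mutation 1 (edgeR adjusted p = 0.253). NFYA rose with Mutation 3 (0.53, adjusted p = 0.000197) and NFYB with Mutation 1 (0.30, adjusted p = 0.00801), and CREB1 passed no test against wild type (-0.22, -0.07 and 0.12). When wild-type replicate 1 was left out, RFXANK fell with Mutation 1 too (-0.15), and CREB1 fell with Mutations 1 and 2 (-0.34 and -0.19). EZH2, the methyltransferase of the Polycomb complex known to silence class I genes in some tumours, averaged 56.8, 119.8 and 78.9 CPM, against 122.4 CPM with wild type, and fell with Mutation 1 (-1.11, edgeR adjusted p = 8.59e-07) and Mutation 3 (-0.63, adjusted p = 8.44e-05). With Mutation 2 EZH2 was at -0.03 (adjusted p = 0.796), and at -0.12 and called when wild-type replicate 1 was left out. NFKB1 fell with Mutations 1 and 3 and rose with Mutation 2 (-1.02, -0.76 and 0.28), while RELA, its usual partner, was higher by 0.16, 0.16 and 0.18 with Mutations 1, 2 and 3.

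**Figure D4:**
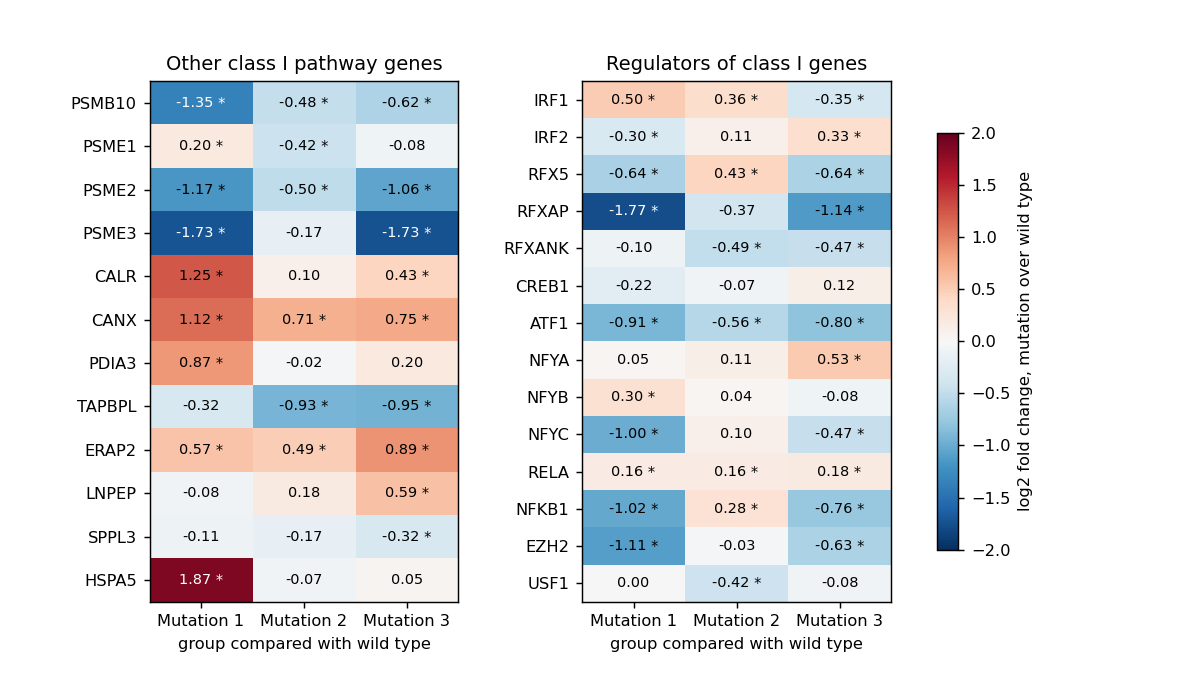
Heat map of log2 fold changes over wild type for the tested genes of the further pathway list (left) and of the regulator list (right, 14 of its genes), with 1 column per mutation, red for higher, blue for lower and an asterisk for an adjusted p under 0.05. CANX and ERAP2 were higher in all 3 columns, PSMB10, PSME2 and ATF1 were lower in all 3, and HSPA5 was called with Mutation 1 alone, in the fit of all 12 libraries.

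Of 17 interferon signalling genes, 12 were tested, and 6 rose and 3 fell with Mutation 1, 3 rose and 2 fell with Mutation 2, and 4 rose and 3 fell with Mutation 3. Leaving out wild-type replicate 1, 7, 7 and 8 rose and 3, 5 and 4 fell. Of all genes tested, 69%, 37% and 59.3% were called with Mutations 1, 2 and 3, and 82.7%, 67.9% and 77.1% without that library. JAK1, the kinase shared by interferon receptors, was higher by 0.80, 0.57 and 0.53 in log2 units (edgeR adjusted p = 9.67e-06, 0.000534 and 0.000323), and JAK2, which pairs with it at the interferon gamma receptor, was lower by 0.62, 0.77 and 0.68. STAT2 and IRF9, partners in the type I interferon complex, rose with Mutation 1 (0.99 and 1.81) and Mutation 3 (0.83 and 1.65). With Mutation 2 they were at -0.38 and -1.23 (adjusted p = 0.132 and 0.126), and at -0.61 and -1.62, both called, when wild-type replicate 1 was left out. SOCS3, a feedback inhibitor of cytokine signalling, fell in all 3 comparisons by 3.66, 1.96 and 0.87, and SOCS1 rose with Mutation 1 by 2.84 (adjusted p = 0.000249). SOCS1 was called with all 3 mutations, at 3.95, 1.82 and 1.53, when wild-type replicate 1 was left out. Transcripts of the interferons themselves were not detected at this depth, with IFNB1, IFNG, IFNL2 and IFNL3 at 0 in all 12 libraries and IFNL1 at no more than 3 counts.

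Each tested gene was also set beside the genes whose profile over the 12 libraries was most like its own. Likeness was the root mean square difference of log2 CPM after each gene's mean was removed, with 10493 candidate genes averaging 5 CPM or more. For HLA-B the nearest were ATP8B1 (0.16), LGALSL (0.18) and SAA2 (0.19). SAA2, an acute-phase serum amyloid gene, averaged 242.2, 139.2 and 171.8 CPM with Mutations 1, 2 and 3, against 27.3 to 124.9 CPM in wild-type libraries. For HLA-C they were SLC25A29 (0.13), THSD4 (0.17) and GXYLT2 (0.19), and for ERAP1 they were YWHAG (0.063), TLE3 (0.068) and CCSER2 (0.078). For B2M they were SEC31A (0.064), which encodes a coat protein of vesicles leaving the endoplasmic reticulum, DNAJC18 (0.075) and ADAM9 (0.090), and SEC31A averaged 567.2, 258.5 and 380.8 CPM, against 268.2 to 285.3 CPM in wild-type libraries. For NLRC5 they were POPDC3 (0.069), CMTM4 (0.11) and HSF2 (0.11). No list held genes of another of the 5, so the heavy chains, B2M, NLRC5 and ERAP1 were not each other's nearest profiles by this measure.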

How the data were processed

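Read pairs per gene were counted by the authors, who deposited raw counts for 12 libraries. Per the file headers, featureCounts 2.0.6 summed exons by gene ID without strand, keeping reads of mapping quality 10 or more, on the Ensembl annotation of hg38. Per the submitters' processing notes, cutadapt 1.9.1, FastQC 0.11.8, STAR, DESeq2 and SAMtools were also used, the last 3 in versions not given in the sources used here. Symbols and positions came from GENCODE v29, and IDs with a symbol held 99.611% of counts.

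All 12 libraries entered 1 edgeR 4.0.16 quasi-likelihood fit (R 4.3.3, TMM scaling, robust estimation, 8 residual degrees of freedom). After filterByExpr, with a minimum count of 10 and total of 15, 15094 genes remained, and calls were made at a Benjamini-Hochberg adjusted p under 0.05 over all of them. SE was taken as the size of the log2 fold change over the root of F. The fit was tested on simulated data with the same spread for all genes and libraries. No simulated library stood apart from its group, so a case like wild-type replicate 1 was not tested. Alternatives were median-ratio scaling, total counts, DESeq2 1.42.0, no filter, fits of 2 groups, non-robust estimation, and each library left out.

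All 9 genes are reported, with at most 4 genes per other list and comparison by lowest adjusted p, genes named whatever their test (PSMB8, PSMB9, PSMB10, IRF1 and RFX5), and the 3 nearest profiles of each tested gene. Other list genes named here (PSME1, RFXAP, RFXANK, NFYA, NFYB, NFYC, ATF1, CREB1, RELA, ULBP3, RAET1E, STAT2, IRF9, TAPBPL and PDIA3 among them), the motifs and the everyday genes of the HLA region were chosen after their values were seen. Some genes of the lists are counted in them but not reported here by name. The 9 genes and all lists were chosen with earlier results of these data known.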

Additional observations from a re-analysis of the deposited data

Results flagged for a closer look

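The summed level of the gene IDs outside the primary assembly, which enter no comparison of the 9 genes, was above wild type with Mutation 1 and Mutation 3 in every library. In this paragraph CPM are taken over total counts without TMM scaling, unlike the CPM of the 9 genes. The summed level averaged 4061 ± 73.8 CPM with Mutation 1, 1583 ± 52.2 CPM with Mutation 2 and 2609.9 ± 56.7 CPM with Mutation 3, against 1168.5 ± 449.1 CPM with wild type (SD, n = 3 each). It was singled out as a signal in rows that the comparisons do not use, with the lowest library at 4011 CPM for Mutation 1 and 2561 CPM for Mutation 3, above the highest wild-type library at 1687 CPM. That highest wild-type library was replicate 1, as for HLA-B, while Mutation 2 at 1544 to 1643 CPM lay within the wild-type range of 896 to 1687 CPM. These IDs carry no symbol in the tables used, so no gene is named for them, and no test was made.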

How the results depend on the processing

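Of 30 results (5 genes in 6 comparisons), 19 kept their call and direction under all 18 alternatives, and of the 540 values 488 kept both, 45 lost a call, 6 gained one and 1 changed sign. That 1 was ERAP1 between Mutations 1 and 2, at -0.0204 (adjusted p = 0.843) with total counts alone, a scaling that put the median of all genes at -0.23 in that comparison and at -0.25 for Mutation 1 against wild type. Under it 36.1% of calls for Mutation 1 against wild type were higher, beside 47.1% with TMM, and 37% beside 48.6% for Mutation 1 against 2, and 36.2% beside 47.3% for Mutation 1 against 3. Of the 5 tested genes, 1 was called for Mutation 2 against wild type when only those groups were fitted, and 2 for Mutation 1 against 2 without the filter. Leaving out each library gave 5 to 5, 2 to 4 and 4 to 5 called genes for Mutations 1, 2 and 3 against wild type, 2 to 4 for Mutation 1 against 2, 4 to 5 for Mutation 1 against 3 and 3 to 5 for Mutation 3 against 2. HLA-B with Mutation 2 lost its call without wild-type replicate 2 (adjusted p = 0.0568) or 3 (0.0584). The same call was lost in the fit of 2 groups (edgeR adjusted p = 0.131) and without the filter (0.0964). Over all genes, Mutation 2 against wild type had 5588 calls, 2591 in the fit of 2 groups and 10725 without wild-type replicate 1, and Mutation 1 against 3 had 6453, 10073 and 10521. The cause was not tested. Summing IDs with the same symbol was not run, since IDs outside the primary assembly carry no symbol in the tables used, and whether some are copies of the 9 genes is unknown. No paired analysis was possible because the mutation libraries carry no replicate numbers in the labels. HLA-C, at 28 to 160 counts, and TAPBP, at 3 to 10, are limited most by depth.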

Other observations

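Molecules that share the class I fold or its light chain, and the class II pathway, were read from the same libraries. Of 13 class I-like genes 8 were tested, and 4 rose and 2 fell with Mutation 1, 4 rose and 3 fell with Mutation 2, and 3 rose and 2 fell with Mutation 3, relative to wild type. With wild-type replicate 1 left out, 5, 3 and 4 rose and 2, 4 and 2 fell. Of all genes tested, 69%, 37% and 59.3% were called with Mutations 1, 2 and 3, and 82.7%, 67.9% and 77.1% without that library. HLA-F, a non-classical heavy chain gene, had 28, 35 and 26 counts with Mutation 1, 1, 1 and 2 with Mutation 2, and 14, 17 and 15 with Mutation 3, against 0 in all 3 wild-type libraries. Set against a floor of 3 counts per library, HLA-F was at least 11.4-fold higher with Mutation 1 and at least 5.54-fold higher with Mutation 3, while no fold is given for Mutation 2, where HLA-F is among the 4 that passed with 1 or 2 counts, a call lost without wild-type replicate 1 (edgeR adjusted p = 0.0714). HLA-F lies in the stretch of chromosome 6 where most genes are at 0. ULBP2 and RAET1G, ligands of the activating receptor NKG2D on natural killer cells, were higher by 1.41 and 1.57 in log2 units with Mutation 1, 1.12 and 0.51 with Mutation 2, and 0.89 and 1.12 with Mutation 3. Without wild-type replicate 1, ULBP2 was at 1.90, 1.60 and 1.37 with Mutations 1, 2 and 3. RAET1G was then at 1.72, 0.69 and 1.28. Other ligands of NKG2D went otherwise. RAET1E was lower with Mutation 1 (-2.33, adjusted p = 0.00094) and Mutation 3 (-3.41, adjusted p = 0.000191) and at -0.59 with Mutation 2 (adjusted p = 0.272), or -0.98 and called without wild-type replicate 1. ULBP3 was lower with Mutation 3 (-1.44, adjusted p = 0.0024), higher with Mutation 2 (1.59, adjusted p = 0.000998) and at 0.07 with Mutation 1 (adjusted p = 0.822). MICB, another such ligand gene, was at 0 in all libraries, and MICA, HLA-G, CD1D and ULBP1 had at most 3 counts. MR1, which presents vitamin metabolites, FCGRT, the neonatal Fc receptor, and HFE, a regulator of iron uptake, all bind B2M and were each lower with Mutation 2 (-1.18, -0.68 and -0.76, adjusted p = 4.64e-05, 0.000239 and 2.55e-05). With Mutation 1, MR1 was lower (-0.52, adjusted p = 0.00197), FCGRT higher (0.56, adjusted p = 0.00018) and HFE at 0.12 (adjusted p = 0.138). With Mutation 3 they were at -0.11, 0.21 and -0.15 for MR1, FCGRT and HFE, not called. Without wild-type replicate 1, HFE with Mutation 1 (0.17) and FCGRT with Mutation 3 (0.23) passed as higher.

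Of 12 class II genes only CD74, CIITA and HLA-DRB1 were tested. CD74, the invariant chain that guides class II molecules, measured 1734, 1629 and 1698 CPM with Mutation 1, 1194, 1168 and 1190 with Mutation 2, and 1268, 1246 and 1231 with Mutation 3, against 605.6, 667.9 and 655.7 with wild type, and rose by 1.39, 0.88 and 0.96 in log2 units (edgeR adjusted p = 7.58e-09, 3.08e-06 and 2.03e-07). CIITA, the class II transactivator related to NLRC5, averaged 9.01, 58.7 and 12.1 CPM with Mutations 1, 2 and 3, against 28.9 CPM with wild type, and was lower with Mutation 1 (-1.68, adjusted p = 0.000233) and Mutation 3 (-1.25, adjusted p = 0.00191) and higher with Mutation 2 (1.02, adjusted p = 0.00942). HLA-DRB1 had 4 to 19 counts per library and passed no test against wild type. The other 9, all in the HLA stretch, had at most 5 counts in any library.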
